A study of Homo sapiens
Mus musculus with 2 samples.

Results

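Undifferentiated crypt cells outside mitosis were taken from single-cell RNA profiles of the mouse colonic epithelium as the barcodes that carried crypt genes and passed under 4 limits for other programmes. A barcode was selected if it held at least 3000 unique molecular identifiers (UMIs, tags that let each captured RNA molecule be counted once) and if, scaled to 1000000 UMIs of the barcode (counts per 1000000, CPM), it met every condition of the rule. Zg16, a goblet cell protein, had to lie under 20000 CPM. The colonocyte genes Prdx6, Tgm3 and Ces2c together had to lie under 2500 CPM. The secretory genes Mptx1, Retnlb, Atoh1, Spdef, Klk1 and Tpsg1 had to lie under 1500 CPM. The mitosis genes Top2a, Cdk1, Birc5, Ube2c, Ccna2, Ccnb2, Cdc20, Pbk, Nusap1 and Aurka had to lie under 1000 CPM. The 7 crypt genes Ifitm3, Hmgn1, Nox1, Sox4, Cd44, Cftr and Phgdh had to reach at least 600 CPM. The cells were thus chosen by the measured values of these 27 genes and by depth. This gave 99 of 2402 barcodes, 76 of 1738 in replicate 1 and 23 of 664 in replicate 2, which is 4.12% of all barcodes (exact 95% binomial interval 3.36 to 4.995%) and 6.31% of the 1570 barcodes with at least 3000 UMIs.

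The study profiled untreated wild-type (WT) colonic epithelium of a C57Bl6 mouse. Epithelial cells were released with EDTA and by collagenase and DNase digestion, and viable cells were enriched on magnetic columns. The human leukaemia cell line K562 was spiked in, cells were captured in droplets with inDrop, and their RNA was amplified linearly with CEL-Seq. The 2 libraries are separate sets of cells from that 1 mouse, sequenced in a single run, so there is 1 group and no contrast between conditions. The mean difference between the libraries was fitted as a block. Every p-value below sets a class difference only against how far such differences varied between the 2 libraries, pooled over 5 classes. That variation may be technical.

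The colonic crypt renews its lining from a proliferative lower part in which Wnt and Notch signals hold cells undifferentiated. Daughter cells pass through the cell cycle as they move up the wall of the crypt and then mature into absorptive colonocytes or into secretory cells such as goblet cells. At the base, Reg4-expressing deep crypt secretory cells lie among the stem cells, for which the Wnt target gene Lgr5 is the best known marker.

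The following 3 classes were cut with the same limits and serve as references. Dividing crypt cells passed every limit except that for mitosis (83 cells, 66 and 17 in replicates 1 and 2). Colonocyte-like cells passed the goblet, secretory and mitosis limits but held at least 2500 CPM of the colonocyte genes (481 cells, 352 and 129). Deep crypt secretory-like cells held at least 1500 CPM of the secretory genes and passed the other 3 limits for non-crypt genes (331 cells, 231 and 100). The median depth of the undifferentiated cells was 5879 UMIs and 2577 genes in replicate 1, and 6482 UMIs and 2743 genes in replicate 2. In the same order, the medians were 7015.5 and 8222 UMIs in dividing cells, 6428 and 7841 in colonocyte-like cells, and 5911 and 7092 in deep crypt secretory-like cells. The median share of UMIs from mitochondrially encoded genes in the undifferentiated cells was 5.13% in replicate 1 and 9.29% in replicate 2, and 23 of the 99 cells lay above 10%. A doublet score from simulated pairs marked 0 of the 99 cells, and no barcode profile was shared between the libraries.

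The crypt genes of the rule set the selection, so their levels are a description. Ifitm3, an interferon-induced transmembrane protein, had 580.1 and 406 CPM in the summed cells of replicates 1 and 2 and was seen in 55 of 76 and 16 of 23 cells. Hmgn1, a nucleosome-binding protein, had 381 and 411 CPM and was seen in 58 and 15 cells. Nox1, the catalytic subunit of the colonic NADPH oxidase, had 305 and 197 CPM and was seen in 52 and 14 cells. No gene of the 7 was carried by every cell. Sox4, a transcription factor of progenitor cells, had 327 and 265 CPM in 38 and 12 cells. Cd44, a hyaluronan receptor and Wnt target, had 211 and 192 CPM in 39 and 12 cells. Cftr, the apical chloride channel, had 189 and 113 CPM in 49 and 10 cells. Phgdh, the first enzyme of serine synthesis, was the sparsest, with 68.4 and 50.7 CPM in 25 and 8 cells. A cell held a median of 10 UMIs of the 7 genes in replicate 1 (2 to 44) and of 8 in replicate 2 (2 to 45), and 3 cells, all of replicate 1, entered through a single gene.

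**Figure D1:**
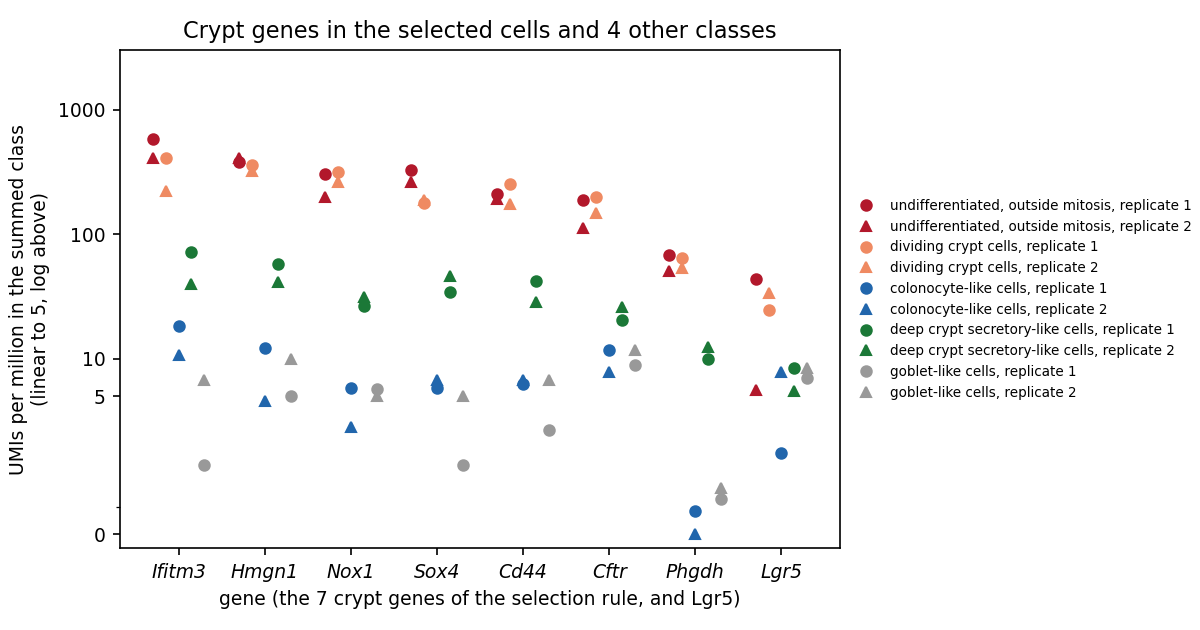
Levels of the 7 crypt genes of the rule and of Lgr5 in the summed UMIs of 5 classes, in CPM (linear up to 5, logarithmic above), with circles for replicate 1 and triangles for replicate 2. For each of the 7 genes the undifferentiated and the dividing crypt cells lie above the other 3 classes in both libraries, while Lgr5 of the undifferentiated cells reads 43.5 CPM in replicate 1 and 5.64 CPM in replicate 2.

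Of 5 markers of the label 4 are genes of the rule, so their shares are a description and no check of it. The shares of the 99 cells with a UMI were 71.7% for Ifitm3, 66.7% for Nox1, 50.5% for Sox4, 59.6% for Cftr and 15.2% for Lgr5. After each cell was thinned to 3000 UMIs the shares were 58.6%, 52.5%, 32.3%, 36.4% and 7.07%. Goblet-like cells, which should lack these genes, serve as the background for free RNA in droplets (median depths 6794.5 and 9650.5 UMIs). There the unthinned shares in replicates 1 and 2 were 1.72% and 6.67% for Ifitm3, 2.59% and 5% for Nox1, 1.72% and 5% for Sox4, and 4.74% and 11.7% for Cftr, a gap that the selection itself sets. These intervals and shares cover counting error only.

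Lgr5, the one marker that the rule did not use, was the least constant. It had 21 UMIs in 14 of 76 cells of replicate 1 (43.5 CPM; 18.4% of cells, exact interval 10.5 to 28.97%) and 1 UMI in 1 of 23 cells of replicate 2 (5.64 CPM; 4.35%, interval 0.11 to 21.9%). In goblet-like cells 4.31% and 8.33% carried an Lgr5 UMI, so the share in replicate 2 was not above that background, and thinning left 7.89% and 4.35% against 1.72% and 0%. Lgr5 read 24.7 and 33.6 CPM in dividing cells, 2.92 and 7.74 CPM in colonocyte-like cells, and 8.43 and 5.47 CPM in deep crypt secretory-like cells. The label thus rests on the genes of the rule and was not checked independently, since Lgr5 was too sparse at this depth to tell stem cells from other undifferentiated cells.

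The cells near the limits are described without a test. The 15 cells just inside the crypt limit (600 to under 800 CPM) and the 19 cells just outside it (400 to under 600 CPM, other limits passed) held 311 and 58.9 CPM of Pcna, the sliding clamp of DNA replication. These Pcna levels rest on 38 and 8 UMIs. The chromatin gene Hmgb2 went with Pcna, at 319 CPM inside and 140 CPM outside. Ptma, prothymosin alpha, went the other way, at 1727 CPM inside and 2055 CPM outside. Muc3, a membrane mucin of absorptive cells, read 4059 CPM inside and 3425 CPM outside. The 15 cells include the colonocyte-rich cell of replicate 2 described below. At the mitosis limit, the 8 cells just inside (800 to under 1000 CPM) and the 11 dividing cells just outside (1000 to under 1200 CPM) held 854 and 992 CPM of Hmgb2, a chromatin protein of cycling cells. Muc3 was at 2451 CPM in those 8 cells and at 755 CPM in the 11 dividing cells.

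The rule did not remove cells of other lineages, and 11 of the 99 cells (11.1%, exact interval 5.68 to 19.0%; 7 in replicate 1, 4 in replicate 2) held at least 5 UMIs of a marker list of tuft, enteroendocrine, T, B and plasma, or myeloid and mast cells. The same count was 2 of 83 dividing cells (2.41%), 6 of 481 colonocyte-like cells (1.25%) and 18 of 331 deep crypt secretory-like cells (5.44%). In 3 cells of replicate 1 the antibody genes Igkc, Igha and Jchain led, with 1117, 1390 and 2853 UMIs of the B and plasma cell list. Those cells entered the selection through Cd44, Phgdh and Hmgn1 and held no UMI of Ifitm3, Nox1, Sox4 or Cftr. A cell of replicate 2 held 932 UMIs of the myeloid and mast cell list, with the mast cell proteases Mcpt1 at 494 and Mcpt2 at 426 UMIs, and entered mainly with 6 UMIs of Cd44. It held 18 UMIs of the T cell list as well. Another cell of replicate 2 held 67 UMIs of the T cell list, of which the chemokine Ccl5 gave 49.

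Enteroendocrine markers stood out in 5 cells, all with Sox4. In replicate 1 these held 8, 20 and 23 UMIs of the enteroendocrine list and 13, 20 and 10 UMIs of Sox4. In replicate 2 they held 11 and 81 UMIs of the list and 25 and 6 UMIs of Sox4. Neurog3, the transcription factor that starts enteroendocrine differentiation, had 15 UMIs in a cell of replicate 1 and 10 UMIs in a cell of replicate 2. The cell with 81 UMIs carried the peptide hormone genes Pyy (29 UMIs) and Insl5 (28 UMIs). One further cell, of replicate 1, held 7 UMIs of the tuft cell list, among them 5 of the ion channel Trpm5. The cell with 23 UMIs of the enteroendocrine list held 16 UMIs of the tuft cell list too, so each cell is counted here by its leading list only. Without the 11 cells, Sox4 fell from 311 to 211 CPM over both libraries, while Ifitm3 was at 563, Nox1 at 293 and Cftr at 179 CPM in the other 88 cells.

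**Figure D2:**
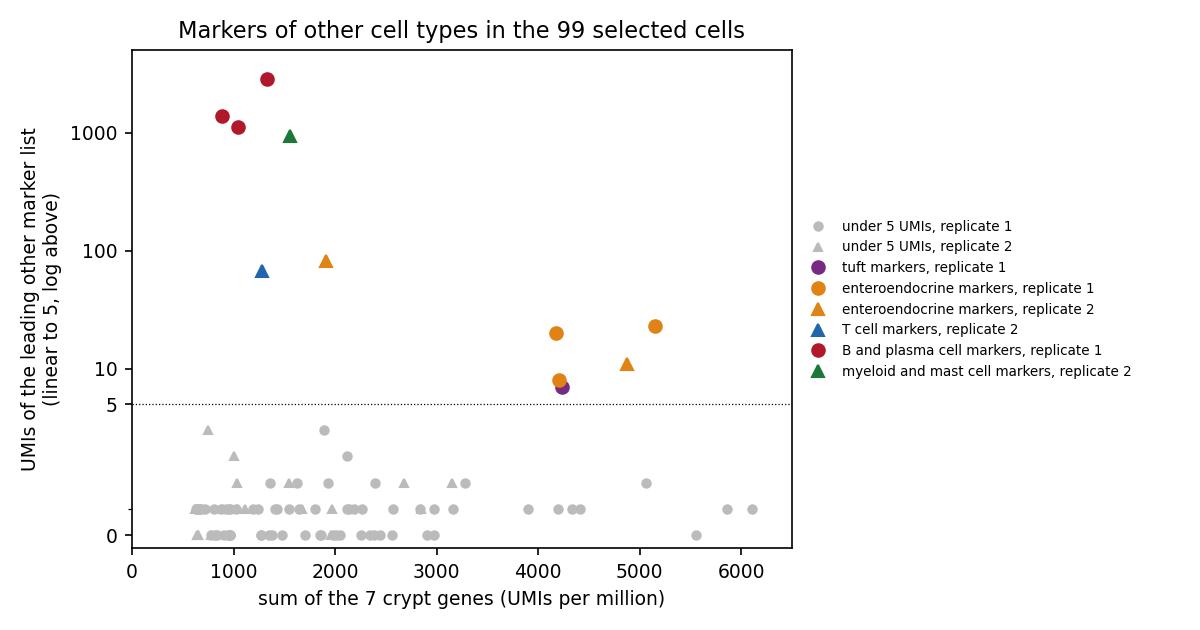
UMIs of the leading other marker list in each of the 99 cells (linear up to 5, logarithmic above) against the sum of the 7 crypt genes in CPM, with circles for replicate 1 and triangles for replicate 2. Above the dotted line at 5 UMIs lie 11 cells: 3 with B and plasma cell markers and 1 with mast cell markers from 932 to 2853 UMIs, 1 with T cell markers, 5 with enteroendocrine and 1 with tuft markers.

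UMIs were summed per library and class and compared with edgeR's quasi-likelihood test across 15538 genes outside the rule, with Benjamini-Hochberg adjusted p under 0.05 as the threshold; "higher" and "lower" below mean past it. Log2 differences use TMM scaling, which sets most genes level between classes. Values after ± are approximate standard errors (SE). They were worked back as the absolute log2 difference divided by the square root of the test's F statistic. All classes were cut from measured values of the same cells, so calls and p-values describe how far apart the sums lie and do not support the classes. The gene lists below were composed with earlier results of these data known.

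Few genes passed the test between undifferentiated and dividing cells. Of 15538 genes, 170 (1.09%) differed, 71 higher (0.457%) and 99 lower (0.637%) in undifferentiated cells. Without the 11 cells named above 154 (0.997%) differed, 54 higher and 100 lower, of which 127 were among the 170. Mitosis genes outside the rule were lower in 25 of 28, with a median log2 difference of −2.71 beside −0.03 over all genes. This is the contrast the rule used, and nothing is read from the count. Plk1, a kinase that drives entry into and exit from mitosis, had 8.29 and 0 CPM in undifferentiated cells of replicates 1 and 2 and 218 and 242 CPM in dividing cells (log2 −5.15 ± 0.51 SE). The spindle motors Kif20a (−3.36 ± 0.52), Kif22 (−3.24 ± 0.60), Kif11 and Kif23 lay likewise far apart, and Bub1, Cenpf and Ndc80 were the 3 that did not pass.

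Of 32 measured genes of DNA replication, 31 did not pass the test, and the median was 0.02. Dut, which keeps uracil out of DNA, read 174 and 147 CPM in undifferentiated cells and 192 and 114 CPM in dividing cells (0.00 ± 0.27). Pcna read 280 and 242 against 272 and 175 CPM (0.20 ± 0.23). The levels of both genes overlapped between the classes. Tk1, thymidine kinase, was the exception, with 45.6 and 67.6 CPM against 165 and 121 CPM (−1.51 ± 0.36, edgeR adjusted p = 0.0053).

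In single undifferentiated cells, the sum of the 32 replication genes had a median of 1714 CPM in replicate 1 and 1411 CPM in replicate 2, beside 1747 and 1428 CPM in dividing cells, 457 and 528 CPM in colonocyte-like cells, and 672 and 739 CPM in deep crypt secretory-like cells. Among the undifferentiated cells, 46 of 76 and 13 of 23 lay above the 95th percentile of the colonocyte-like cells of their library, as did 49 of 66 and 11 of 17 dividing cells. The range was wide: undifferentiated cells reached 11760 CPM in replicate 1 and 6452 CPM in replicate 2. The sum of mitosis genes outside the rule had medians of 686 and 678 CPM in undifferentiated cells, 6049 and 5627 CPM in dividing cells, and 635 and 732 CPM in colonocyte-like cells. For this sum, 18 of 76 and 5 of 23 undifferentiated cells lay above the 95th percentile of the colonocyte-like cells. So did 63 of 66 and 15 of 17 dividing cells. The maxima in undifferentiated cells were 4367 and 5412 CPM, so some cells under the mitosis limit still held raised mitosis genes. No phase was assigned to single cells from these sums.

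**Figure D3:**
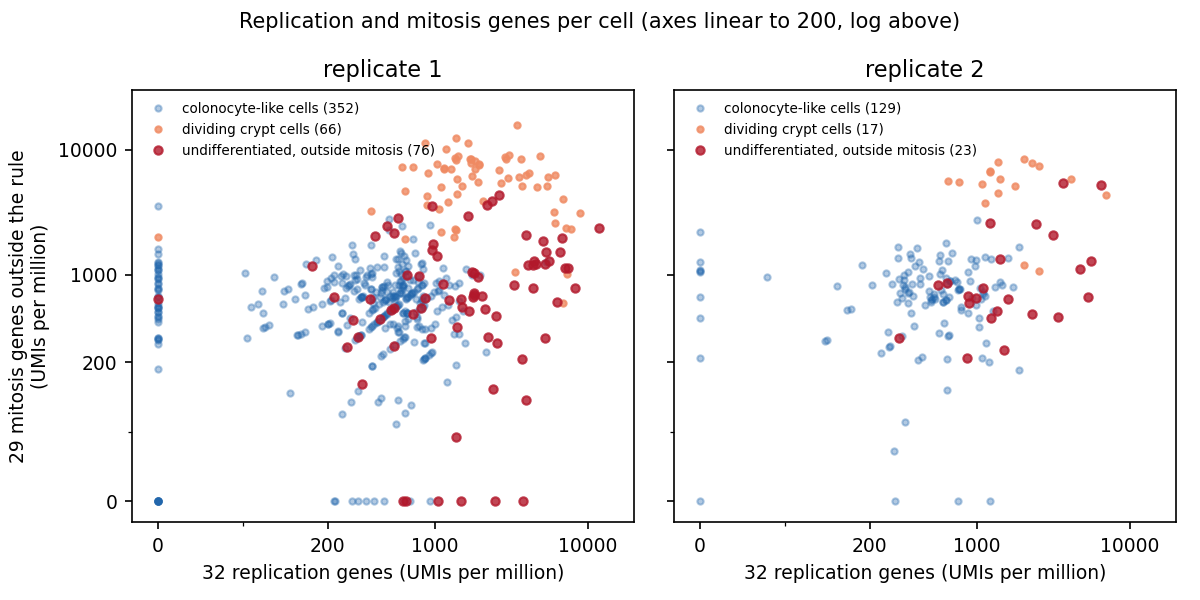
Sum of 29 mitosis genes outside the rule against the sum of 32 replication genes for each cell, in CPM (linear up to 200, logarithmic above), with one panel for each library. In both panels the undifferentiated cells spread along the replication axis over the range of the dividing cells, with medians of 1714 and 1411 CPM, while most stay at the mitosis levels of the colonocyte-like cells.

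Chromatin proteins were lower in 5 of 23, with a median of −0.40. Hmgb2 had 373 and 462 CPM in undifferentiated cells and 1824 and 1626 CPM in dividing cells (−2.08 ± 0.17). The histone variant H2afx (−1.63 ± 0.33), the histone chaperone Anp32e (−1.15 ± 0.26), Cbx3 (−0.85) and Hmgb1 (−0.77 ± 0.15) were the other 4. Of the genes of cell cycle entry and exit, 2 of 25 passed the test. The cyclin-dependent kinase inhibitor Cdkn1b had 33.2 and 45.1 CPM against 107 and 155 CPM in dividing cells (−1.71 ± 0.37). Cdkn1a, another inhibitor, was higher (2.19 ± 0.34), but 51.8% of its UMIs came from 1 cell and the difference did not pass without the 11 cells (1.02, edgeR adjusted p = 0.24).

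Colonocyte genes were the list with the most members higher in undifferentiated than in dividing cells, 8 of 34 against 0.457% of all genes, with a median of 0.80. Muc3 had 2395 and 2266 CPM against 1309 and 1290 CPM in dividing cells (0.85 ± 0.13). Car1, a cytosolic carbonic anhydrase, had 128 and 62.0 CPM against 10.3 and 26.9 CPM (2.91 ± 0.45). Slc26a3, the apical chloride and bicarbonate exchanger, had 106 and 130 CPM against 45.3 and 67.2 CPM (1.14 ± 0.32). In each of these genes both libraries of the undifferentiated cells lay above both libraries of the dividing cells. Lgals3 (1.26 ± 0.18), Lypd8 (0.99), Aqp4 (0.72 ± 0.18), Krt20 and Cdkn1a were the others. Krt20, a keratin of the upper crypt, had 147 and 529.8 CPM against 63.9 and 40.3 CPM (2.27 ± 0.26).

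A single cell carried part of this. A cell of replicate 2 with 10792 UMIs, 649 CPM of crypt genes (6 UMIs of Ifitm3 and 1 of Cftr) and 2224 CPM of the colonocyte genes of the rule, just under their limit, held 63288 CPM of the 36 colonocyte maturation genes, where the next cell of that library held 29733 CPM. It gave 52.7% of all Krt20 UMIs of the 99 cells and 83.3% of those of Ifit1bl1, an interferon-induced gene. Without it 6 of the 34 genes were higher and the median was 0.53. Krt20 (1.00, edgeR adjusted p = 0.0387), Car1 (2.79) and Lgals3 (0.96) were still higher, while Slc26a3 (1.08, which also missed the threshold when scaled by total UMIs, adjusted p = 0.0581) and Aqp4 (0.59, adjusted p = 0.0811) no longer passed, and Ifit1bl1 went from 2.69 to −0.036.

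The genes highest in undifferentiated relative to dividing cells among the 99 cells were Igha, Jchain, Srgn, Mcpt2, Pyy, Ccl5, Insm1 and Slc7a14. These are genes of plasma, mast, T and enteroendocrine cells for the most part, and at least 47% of the UMIs of each lay in 1 cell. None of these 8 passed without the 11 cells. In the 88 cells without such markers the leading genes were Slc13a2, Car1, Ifit1bl1, Krt20, Gsdmc4, Clcn2, Upp1 and Sprr2a2, of which Upp1 (1.02, edgeR adjusted p = 0.614) and Ifit1bl1 did not pass in the 98 cells without the colonocyte-rich one, where Sprr2a2 read 0.59. Slc13a2, a citrate and succinate transporter of absorptive cells, had 61.1 and 71.2 CPM against 2.06 and 20.2 CPM (3.30 ± 0.58). Clcn2, a chloride channel, had 72.4 and 116 CPM against 26.8 and 6.72 CPM (1.98 ± 0.42). Over all 99 cells Clcn2 was also the 1 gene of 22 of the chloride and potassium secretion list that passed (1.82 ± 0.43), and not without the colonocyte-rich cell (1.53, edgeR adjusted p = 0.0597).

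In most of the remaining lists few or no genes passed against dividing cells. No gene passed among 17 Notch genes (median −0.07), 28 of ribosome biogenesis (−0.03), 10 NADPH oxidase partners (−0.01), 9 interferon-induced transmembrane and class II genes (0.08) and 22 genes of EGF receptor and other crypt signals (0.03). Among 25 crypt base and Wnt target genes only Aqp4, a water channel, passed, with 870.2 and 688 CPM against 503 and 450.3 CPM. Aqp4 is also a member of the colonocyte list, where it was counted above, and it did not pass without the colonocyte-rich cell. Myc read 155 and 90.2 CPM against 126 and 40.3 CPM (0.46 ± 0.31), and Lgr5 0.25 ± 0.55. On simulated counts, the same test called 58 of 100 genes changed 4-fold and 11 of 100 changed 2-fold in this comparison. The changed genes were drawn from those with at least 100 UMIs over all sums, with no library effect. Every simulated gene had the same dispersion, set above the common dispersion of the fit (0.0119). In that setting 2-fold differences of such genes mostly did not pass, and no sparser gene was simulated as changed. In the data some differences under 2-fold did pass, that of Aqp4 among them.

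**Figure D4:**
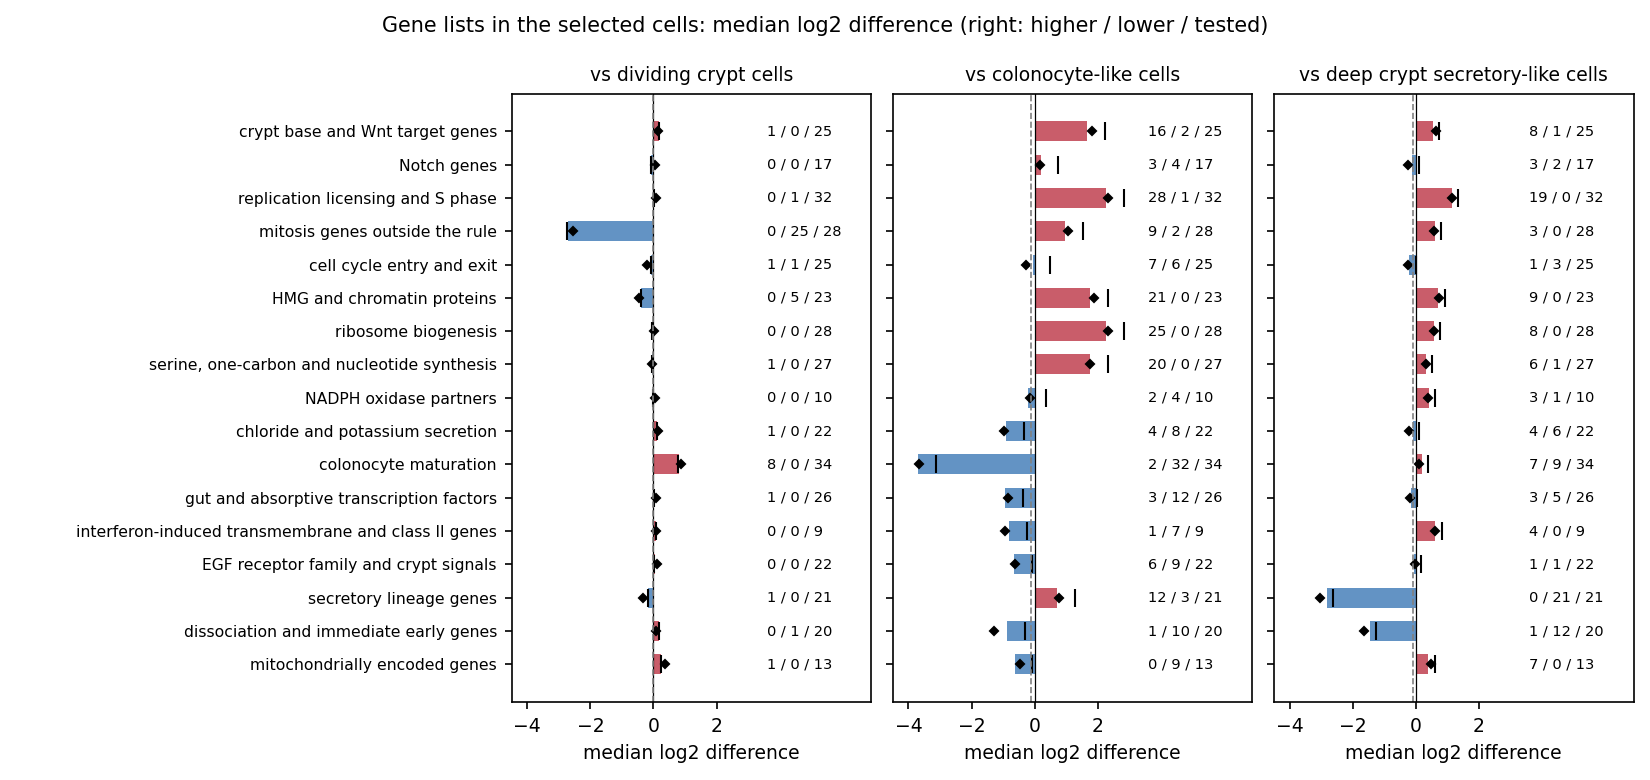
Median log2 difference of each gene list between the undifferentiated cells and 3 other classes (bars, red above and blue below 0; diamonds, without the 11 cells with markers of other types; ticks, scaled by total UMIs only; dashed line, median of all genes). The numbers at the right give the genes higher, lower and tested. Against dividing cells most bars lie near 0 apart from mitosis (−2.71), chromatin (−0.40) and colonocyte genes (0.80).

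Against colonocyte-like cells most measured genes of replication, ribosome biogenesis and chromatin were higher in undifferentiated cells. Of 15538 genes 4350 (28%) differed, 1909 higher (12.3%) and 2441 lower (15.7%), and without the 11 cells 4189 (27.1%). Scaled by total UMIs alone, 4884 differed, 3541 higher and 1343 lower, since that scaling moves the median of all genes from −0.11 to 0.45. CPM levels are on the total-UMI scale, so their ratios lie above the log2 differences by the difference of the TMM factors (log2 0.145 and 0.357 in undifferentiated, −0.418 and −0.213 in colonocyte-like cells). Replication genes were higher in 28 of 32 and lower in 1, with a median of 2.26. Dut had 174 and 147 CPM against 5.01 and 5.80 CPM in colonocyte-like cells (4.38 ± 0.36). Mcm5, a subunit of the replicative helicase, had 122 and 118 CPM against 5.85 and 3.87 CPM (3.96 ± 0.39). The libraries of the 2 classes did not come near each other in either gene.

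Ribosome biogenesis genes were higher in 25 of 28 and lower in none (median 2.27). Nhp2, a protein of the RNA pseudouridylation complex, had 176 and 175 CPM against 8.35 and 8.70 CPM (3.80 ± 0.32). Npm1, nucleophosmin, had 794 and 705 CPM against 67.6 and 48.4 CPM (3.10 ± 0.18). Chromatin proteins were higher in 21 of 23 and lower in none (median 1.77). Ptma, prothymosin alpha, had 4221 and 3235 CPM against 183 and 129 CPM (4.01 ± 0.14). Serine, one-carbon and nucleotide synthesis genes, the pathway that Phgdh starts, were higher in 20 of 27 and lower in none (median 1.77). Gart, a trifunctional enzyme of purine synthesis, had 114 and 118 CPM against 7.52 and 4.84 CPM (3.54 ± 0.38), and the serine hydroxymethyltransferases Shmt2 (3.45 ± 0.46) and Shmt1 (3.39) were higher as well. In these 4 lists, the counts of higher genes under total-UMI scaling were 28, 27, 22 and 21, with none lower. Beside these, immediate early genes, which cell isolation can induce, were lower in 10 and higher in 1 of 20 (7 and 4 when scaled by total UMIs), and mitochondrially encoded genes lower in 9 and higher in 0 of 13 (4 and 2), with median mitochondrial shares of 5.34% and 11.6% in colonocyte-like cells. The part of either in the other differences was not tested.

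Crypt base and Wnt target genes were higher in 16 of 25 and lower in 2 (median 1.67). Smoc2, a matrix protein of crypt base cells, had 122 and 101 CPM against 4.59 and 5.80 CPM (3.93 ± 0.39). Myc had 155 and 90.2 CPM against 7.52 and 3.87 CPM (3.82 ± 0.37). Cdca7, a Myc-responsive chromatin factor, had 273 and 180.4 CPM against 10.4 and 15.5 CPM (3.72 ± 0.29). In all 3 both libraries of the undifferentiated cells lay far above those of the colonocyte-like cells. The receptors Lrig1 (3.31 ± 0.43) and Ephb3 (3.28 ± 0.38) and the transcription factors Sox9 (2.18 ± 0.24) and Ascl2 (3.05 ± 0.72) were higher too. Lgr5 passed (2.23 ± 0.56, edgeR adjusted p = 0.000679), but within replicate 2 alone its log2 ratio was −0.53. Aqp4 (−0.63) and Prom1 (−0.81) were lower, and not so when scaled by total UMIs. Aqp4 counts in the colonocyte list as well.

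Of 17 Notch genes 3 were higher and 4 lower, beside 12.3% and 15.7% of all genes. Hes6 (1.98 ± 0.28), Notch1 (1.78 ± 0.41) and Hes1 (1.28 ± 0.30), the last a direct target that keeps cells from secretory fate, were higher, and Hey1, Numb, Jag1 and Adam10 were lower. When scaled by total UMIs 6 were higher and 2 lower. Without the 11 cells 4 were higher and 3 lower: Jag1 and Adam10 did not pass, and the ligands Dll1 (2.34) and Dll4 (−1.39) did. Hes1 had 80.8 and 135 CPM against 29.6 and 23.2 CPM. Cell cycle genes were higher in 7 and lower in 6 of 25, beside the same shares of all genes. Their sum was near level, at 2211 and 2074 CPM against 2238 and 1904 CPM. Cdk4, the kinase of G1 progression, had 298 and 237 CPM against 14.2 and 14.5 CPM (3.69 ± 0.27). Its inhibitor Cdkn2b had 6.22 and 5.64 CPM against 61.0 and 70.6 CPM (−3.89 ± 0.53). Cdk6 (2.94 ± 0.40) was higher too, and Ccng2 (−3.69 ± 0.26) and Cdkn1a (−2.53 ± 0.21) were lower. Genes of this list were named by the size of their difference, and the list was not sorted by role.

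Transport genes also divided. Slc12a2, the basolateral sodium, potassium and chloride cotransporter that loads secreting cells, had 903 and 1015 CPM against 27.1 and 29.98 CPM (4.53 ± 0.20). Kcne3, a potassium channel subunit, had 207 and 310.0 CPM against 17.5 and 15.5 CPM (3.28 ± 0.27). Clcn2 had 66.3 and 101 CPM against 623 and 484 CPM (−3.41 ± 0.23), and Ano1, a calcium-activated chloride channel, was lower as well (−3.04 ± 0.26). The list held 4 higher and 8 lower genes of 22, beside 12.3% and 15.7% of all genes. Scaled by total UMIs it held 6 higher and 5 lower, beside 3541 and 1343 of all 15538 genes. Among 10 partners of NADPH oxidases, the Nox1 activator Noxa1 was higher (1.89 ± 0.52), with 31.1 and 39.5 CPM against 6.26 and 5.80 CPM. Cybb, the phagocyte oxidase, passed too (1.90) but not without the 11 cells (0.84). Duox2 (−2.05 ± 0.17), Duoxa2, Nos2 and Rac1 were lower. Cyba, the shared membrane subunit of Nox1, read −0.04 ± 0.27.

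Colonocyte maturation genes were lower in 32 of 34 and higher in 2, Sult1a1 and Guca2b (median −3.69), the latter not without the 11 cells; the rule kept colonocyte genes low, so this is a description. Aqp8, a water channel of surface cells, had 14.5 and 16.9 CPM against 1263 and 1171 CPM (−6.85 ± 0.28). Saa1, serum amyloid A, had 116 and 203 CPM against 7174 and 5630 CPM (−6.03 ± 0.18). Klf4, a transcription factor of differentiated epithelium, had 168 and 237 CPM against 1112 and 825 CPM (−2.91 ± 0.17). Every one of the 76 cells of replicate 1 and 21 of the 23 of replicate 2 lay under the 5th percentile of the colonocyte-like cells for the summed list.

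Of the interferon-induced transmembrane and class II list, Ifitm2, a close homologue of Ifitm3, had 276 and 197 CPM against 18.4 and 12.6 CPM (3.34 ± 0.26). The near-identical copies of this family leave the split of counts between Ifitm2 and Ifitm3 uncertain. Class II genes were lower, 7 of the 9 genes of the list, but 3 when scaled by total UMIs, and H2-Aa had 1581 and 1054 CPM against 3581 and 2749.7 CPM (−1.83 ± 0.13). H2-Eb1 (−0.38) was among the 7 but did not pass without the 11 cells, and in CPM, with 1554 and 1223 against 1399 and 1042, it lay the other way. Secretory lineage genes were higher in 12 and lower in 3 of 21, beside 12.3% and 15.7% of all genes. Ern2, an unfolded protein sensor of mucous cells, was among the higher, with 168 and 152 CPM against 12.1 and 23.2 CPM (2.78 ± 0.28). The transcription factor Foxa2 was another (2.60 ± 0.46). Per undifferentiated cell, this list summed to medians of 4037 and 3184 CPM and maxima of 33102 and 17642 CPM in replicates 1 and 2. Colonocyte-like cells had higher medians, 8334 and 6635 CPM, so the summed list lay lower in the typical undifferentiated cell although more of its genes were higher. Deep crypt secretory-like cells began at 10061 and 4658 CPM, so some undifferentiated cells lay within their range. The cells at these maxima were not among the 11 cells. How far such cells carried these calls was not tested. Igf1r, a growth factor receptor, was higher (2.65 ± 0.41) and the EGF receptor ligand Areg lower (−3.14 ± 0.38).

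Without the 11 cells the leading higher genes were Lsm7, Stmn1, Slc12a2, Dut, Npm3, Cnn3, Nxpe2 and Cldn2. Stmn1, a microtubule-destabilizing protein of growing cells, had 364 and 414 CPM against 8.35 and 10.6 CPM (4.82 ± 0.27). Cldn2, a pore-forming claudin of crypts, had 396 and 324 CPM against 16.7 and 7.74 CPM (4.21 ± 0.25). Over all 99 cells Stmn1 (4.86) was joined by Mcpt1, Igha, Igkc, Jchain, Mzb1, Insm1 and Derl3, in each of which at least 47.6% of the UMIs lay in 1 cell, and none of these 7 was higher without the 11 cells (Mcpt1, Mzb1 and Derl3 then had too few UMIs to be tested). The leading lower genes over the 99 cells were Prss30 (−7.51), Clca4b, Pmp22, Aqp8, 2010109I03Rik, Cyp2d34, Mal and Atp12a, each seen in 8 undifferentiated cells or fewer.

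Deep crypt secretory-like cells, the other residents of the lower crypt, differed in 1376 of 15538 genes (8.86%), 442 higher (2.84%) and 934 lower (6.01%) in undifferentiated cells, and without the 11 cells 1324 (8.57%). Scaled by total UMIs alone 1392 differed, 718 higher and 674 lower, with the median of all genes at 0.09 in place of −0.10. The secretory list was lower in 21 of 21, with a median of −2.81, and is a description since the rule kept secretory genes low. Muc2, the gel-forming mucin, had 1133 and 829 CPM against 23026 and 15630.1 CPM (−4.49 ± 0.11). A Muc2 UMI was seen in 92.1% and 87% of undifferentiated cells, beside 81% and 82.2% of colonocyte-like cells, so its presence was not told apart from free RNA. Reg4, which marks deep crypt secretory cells, had 572 and 124 CPM against 5922 and 4200.5 CPM (−4.01 ± 0.16), and 42.3% of its UMIs in undifferentiated cells lay in 1 cell.

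Replication genes were higher in 19 of 32 and lower in none (median 1.15), the same count under total-UMI scaling. Mcm4 had 124 and 67.6 CPM against 29.5 and 19.1 CPM (1.82 ± 0.34). Pcna had 280 and 242 CPM against 155 and 90.2 CPM (0.86 ± 0.22). Of the other growth lists, chromatin proteins were higher in 9 of 23 (median 0.72), ribosome biogenesis genes in 8 of 28 (0.57), and serine, one-carbon and nucleotide synthesis genes in 6 of 27 (0.32) with Slc1a5 lower. Paics, an enzyme of purine synthesis, had 203 and 124 CPM against 37.2 and 31.4 CPM (2.11 ± 0.29). Cdk4 was higher (1.22 ± 0.22).

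Crypt base and Wnt target genes were higher in 8 and lower in 1 of 25 (median 0.55). Ascl2, a Wnt-responsive transcription factor of stem cells, had 22.8 and 33.8 CPM against 1.41 and 0 CPM. Kcnq1, a potassium channel, had 93.2 and 73.3 CPM against 9.84 and 9.57 CPM (2.94 ± 0.41). Cdca7 (2.39 ± 0.26), Ephb3, Smoc2 and Myc were higher in addition, as was Aqp4 (2.16 ± 0.18), which is also in the colonocyte list. Lgr5 passed (1.90 ± 0.56, edgeR adjusted p = 0.0116) with 43.5 and 5.64 CPM against 8.43 and 5.47 CPM, and Prom1 was lower. The libraries overlapped for Lgr5. Sox9 read 222 and 209 CPM against 254 and 197 CPM (−0.29 ± 0.21).

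Of 17 Notch genes 3 were higher and 2 lower (median −0.11). Notch1, the receptor, had 47.7 and 84.5 CPM against 8.43 and 17.8 CPM (2.14 ± 0.44). The Notch target Nrarp had 60.1 and 84.5 CPM against 15.5 and 15.0 CPM (1.95 ± 0.40), and Hes1 was higher too (0.89 ± 0.30). The ligand Dll4 had 26.9 and 16.9 CPM against 86.4 and 79.3 CPM (−1.94 ± 0.39), and Hey1, another target, was lower (−1.59 ± 0.45). Of the oxidase partners, Nos2 (2.63 ± 0.45), Noxa1 (1.73 ± 0.52) and Cyba (0.89 ± 0.30) were higher and Rac1 lower.

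Absorptive genes were divided against the secretory-like neighbours, with 7 higher and 9 lower of 34 colonocyte genes (9 and 7 when scaled by total UMIs, and 4 and 10 without the colonocyte-rich cell). Muc3 had 2395 and 2266 CPM against 368 and 636 CPM (2.03 ± 0.13). Sult1a1, a sulfotransferase, had 203 and 276 CPM against 34.4 and 39.7 CPM (2.46 ± 0.26). Guca2a, the guanylin peptide, had 189 and 124 CPM against 858 and 723 CPM (−2.49 ± 0.17). The vitamin D receptor Vdr (1.44 ± 0.23) and Hnf4a (0.85 ± 0.19), transcription factors of absorptive cells, were higher. They do not stand for their list: its 27 gut and absorptive transcription factors summed to 3464 and 3196 CPM against 3723 and 3405 CPM. Class II antigen presentation genes were higher in 4 of the 9 genes of their list, led by H2-Eb1 with 1554 and 1223 CPM against 544 and 495 CPM (1.21 ± 0.14) and the invariant chain Cd74 (0.70 ± 0.14), and none was lower under either scaling.

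Immediate early genes were lower in 12 and higher in 1 of 20. Dusp1 had 6.22 and 33.8 CPM against 166 and 196 CPM (−3.83 ± 0.37), Egr1 70.4 and 50.7 CPM against 285 and 271 CPM (−2.31 ± 0.25), and Fos 209 and 344 CPM against 893 and 775 CPM (−1.90 ± 0.17). Mitochondrially encoded genes were higher in 7 of 13 (12 when scaled by total UMIs), with median mitochondrial shares of 5.13% and 9.29% against 3.21% and 6.98%. Their part in the other differences was not tested. Among the leading higher genes without the 11 cells were Mgst1, Nlrp6, Slc35f4, Reg3b, Kcnq1 and Asphd2. Mgst1, a microsomal glutathione transferase, had 430.1 and 434 CPM against 40.04 and 36.9 CPM (3.29 ± 0.23), and Nlrp6, an inflammasome sensor, 186 and 207 CPM against 19.7 and 20.5 CPM (3.08 ± 0.29). The leading lower gene, Nov, a matricellular protein, had 0 and 16.9 CPM against 636 and 416 CPM, with its 3 UMIs in 1 of the 99 cells.

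The cells varied among themselves along the crypt sum that selected them, and this is given without a test. The 88 cells without other markers fell into 34 cells at 600 to under 1200 CPM, 34 at 1200 to under 2400 CPM and 20 at 2400 CPM and over. In that order, Muc3 had 3921, 2220 and 951 CPM in the summed cells of both libraries, and Lypd8, an antibacterial surface protein, 3329, 1747 and 786 CPM. The 36 colonocyte genes together read 15190, 8167 and 4382 CPM. Car1 had 202, 100.2 and 0 CPM, and Aqp4 had 1353, 659.7 and 476 CPM. Each of these was highest in the cells with the least crypt genes, in replicate 1 as in replicate 2 for Muc3, Lypd8 and the summed list. The lowest group includes the colonocyte-rich cell of replicate 2, with 649 CPM of crypt genes and 63288 CPM of the summed list. The groups were not read without it.

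Growth genes ran the other way. Ptma had 2471, 4773 and 5455 CPM, Cdca7 109, 264 and 504 CPM, Sox9 134, 259 and 339 CPM, and Slc12a2 668, 1051 and 1362 CPM in the same 3 groups. The ribosome biogenesis list read 2480, 3672 and 4439 CPM and the chromatin list 6149, 10488 and 11747 CPM. Replication genes changed less, at 2307, 2375 and 3070 CPM, and Pcna stood at 290, 296 and 238 CPM. The secretory list read 9100, 4577 and 2940 CPM. The median mitochondrial share was 7.58%, 5.94% and 5.31%; its part was not tested, and since CPM are shares of a cell's total, a gain of some genes lowers the others.

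**Figure D5:**
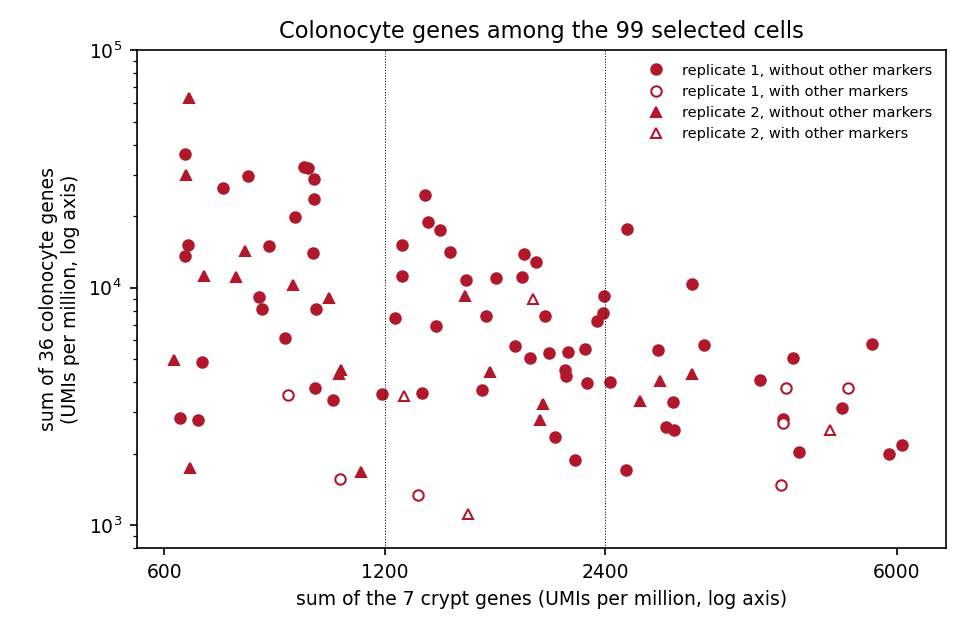
Sum of 36 colonocyte maturation genes against the sum of the 7 crypt genes in each of the 99 cells, both in CPM on logarithmic axes, with circles for replicate 1, triangles for replicate 2 and open symbols for the 11 cells with markers of other cell types. Dotted lines mark the bounds at 1200 and 2400 CPM. Cells near the lower crypt limit reach the highest colonocyte sums, up to 63288 CPM, and cells at 2400 CPM and over lie lower.

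The 14 cells with an Lgr5 UMI among the 88, all of replicate 1, were set beside the other cells of that library without one. Cells with Lgr5 held 49.3 CPM of Ascl2 and 178 CPM of Smoc2, and cells without it 17.6 and 120.4 CPM. Aqp4 stood at 1095 and 881 CPM, Car1 at 375 and 64.6 CPM, Krt20 at 325 and 88.1 CPM, and Lgals3 at 976 and 314 CPM. Among these cells Lgr5 therefore did not mark those with the least colonocyte genes, and the maturation list read 11045 CPM with and 9333 CPM without Lgr5. The Krt20 UMIs of the cells with Lgr5 came from 3 cells and those of Car1 from 5. These are sums over few cells of a single library and carry no test.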

How the data were processed

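The authors deposited, for each of 2 libraries, a table of raw UMI counts for 25504 mouse gene symbols by barcode, without normalization, per the file headers and values. Barcodes carry serial numbers only, and 0 profiles were identical between libraries. Per the submitters' processing notes the builds were GRCh38 and GRCm38. Not given in the sources used here are the aligner, annotation, strand and barcode filter, so near-identical, overlapping and antisense genes have uncertain counts. K562 cells were not analysed here.

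Each barcode was scaled to CPM and put in a class by the limits in the text. The members and lists were chosen with earlier results of these data known. Counts were summed per library and class (148796 to 2395120 UMIs a sum). They were fitted over 5 classes, goblet-like cells included for the spread (Zg16 at least 20000 CPM, 292 cells), with the library as a block since every class is drawn from both libraries (edgeR 4.0.16, R 4.3.3, TMM, at least 20 UMIs over all sums, 4 residual degrees of freedom). The genes of the rule were not tested. Scripts were tested on simulated data. Named genes are the 8 largest in each direction per comparison (adjusted p under 0.05, same direction in both libraries, at least 50 CPM), up to 5 per list, and the markers; the leading genes without the 11 cells, and others given as levels, were chosen after their values were seen. Some leading genes are not reported here. Doublets were scored by simulated pairs (scikit-learn 1.9.0), and the top 5% of scores in each library left out only as an alternative. Other alternatives were DESeq2 1.42.0, other limits, depths and filters, and thinning.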

Additional observations from a re-analysis of the deposited data

How the results depend on the processing

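Over the alternatives run, 14 values reversed outside the fits of single libraries. The selection held 63 cells at 5000 UMIs or more. Against dividing cells the number of genes that differed (170) was 100 with at least 100 UMIs over all sums, 56 with DESeq2, 110 with a crypt limit of 1000 CPM and 86 with cells thinned to 3000 UMIs. Against colonocyte-like cells it was 2848 after thinning (4350), and against deep crypt secretory-like cells 763 with DESeq2 and 710 after thinning (1376). With no replicate block, that is, without the library in the model, 73, 3184 and 532 genes differed. The share of cells with a UMI moved for Ifitm3 to 84.3% at 1000 CPM, 84.1% at 5000 UMIs and 58.6% after thinning, for Sox4 to 65.1% at 5000 UMIs and 32.3% after thinning, and after thinning to 52.5% for Nox1, 7.07% for Lgr5 and 36.4% for Cftr. Within single libraries it ranged from 4.35 to 18.4% for Lgr5 and from 43.5 to 64.5% for Cftr. Without the cells carrying other markers, Insm1 reversed to −4.82 against dividing and −3.33 against colonocyte-like cells, and Igkc to −0.50 against colonocyte-like cells. Jchain reversed to −0.53 against both colonocyte-like and deep crypt secretory-like cells, and Srgn to −3.98 against the latter. None of these reversed values passed the threshold, so none is a call of lower expression. Against dividing cells, Ccl6 was −0.11 with a crypt sum without Ifitm3 and −0.24 and 1.44 within replicates 2 and 1, Ifit1bl1 −0.20 with that sum and −0.036 without the colonocyte-rich cell, mt-Co3 −0.15 without cells above 10% mitochondrial UMIs, and Lgr5 −0.025 at 5000 UMIs and −0.45 after thinning. Against colonocyte-like cells Lgr5 was −0.53 and 3.27 within replicates 2 and 1. Against deep crypt secretory-like cells, without cells above 10% mitochondrial UMIs, mt-Co3 was −0.17 and mt-Atp6 −0.033. The cause was not tested in any of these. The alternatives without the cells carrying other markers, without the colonocyte-rich cell and with total UMIs only were chosen after seeing the data. In replicate 2 the sums of the undifferentiated cells rest on 23 cells, beside 76 in replicate 1.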
